A study of Mus musculus with 12 samples.

Results

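The neuronal and synaptic genes described here are 35 genes of the neuronal cytoskeleton, the growth cone, neuronal RNA binding, vesicle release, GABA synthesis, synaptic adhesion, membrane anchoring and protein turnover. They were listed by name and followed on Illumina bead arrays through 4 groups of mouse cells. A probe was kept where its detection p-value was under 0.01 on at least 3 of the 12 arrays. Of the 35 genes, 30 had a probe in the platform annotation and 29 passed, by 50 of their 56 probes, among 10043 named genes tested in the series. The study compared induced pluripotent stem (iPS) cells derived with the human form of Nanog (hNanog iPS, n = 3) or with the mouse form (mNanog iPS, n = 3), embryonic stem cells (ES, n = 3) and neural stem cells without Nanog (NS, n = 3). The homeodomain factor Nanog is active in pluripotent cells. Every one of the 12 samples is labelled with the strain E14Tg2A (129), the name of an ES line from mouse. Both the iPS and the ES cells grew in N2B27, a serum-free medium, with LIF, with CHIR99021 at 3 µM (an inhibitor of GSK3) and with PD0325901 at 1 µM (an inhibitor of MEK). No growth medium is stated for NS in the labels, so medium and cell type cannot be told apart in any comparison with NS. Whether replicates came from separate cultures or clones is not stated, so the p-values cover the spread among these arrays, which may be technical, and the form of Nanog and the clone cannot be told apart. The labels also do not name the cells from which the iPS cells were made.

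Neurons carry axons and dendrites built on microtubules, which are stabilised by proteins such as MAP2 in dendrites and tau in axons and loosened by stathmins. Synaptic vesicles fuse with the membrane through SNARE proteins under the control of calcium sensors of the synaptotagmin family, while neurexins, contactins and postsynaptic scaffolds hold the contact together. Many of these genes are kept low outside the nervous system by the repressor REST, and neural stem cells are the dividing progenitors from which neurons and glia arise.

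Promoter sequences were available for 21 of the 29 tested genes (RefSeq, GRCm38.p6). The windows below, the 250 bases before the start site of the listed strand, are shown for 3 genes that were lower in all iPS and ES groups than in NS (Map2, Cntn1 and Rtn1) and for 1 that was higher (Stx1a), to set genes that differed from NS in opposite directions side by side. Capitals mark CpG pairs. Map2 lies at chr1:66175079-66175328 on the plus strand, Cntn1 at chr15:92050915-92051164 on the plus strand, Rtn1 at chr12:72235747-72235996 on the minus strand and Stx1a at chr5:135023232-135023481 on the plus strand. Cntn1 and Rtn1 have 3 listed windows each, of which the top entry is printed.
Map2: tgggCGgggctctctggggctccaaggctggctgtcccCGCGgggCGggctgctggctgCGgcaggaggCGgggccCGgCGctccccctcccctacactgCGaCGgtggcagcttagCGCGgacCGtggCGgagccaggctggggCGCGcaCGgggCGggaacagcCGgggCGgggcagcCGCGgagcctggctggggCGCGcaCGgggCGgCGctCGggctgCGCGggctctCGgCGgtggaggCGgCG
Cntn1: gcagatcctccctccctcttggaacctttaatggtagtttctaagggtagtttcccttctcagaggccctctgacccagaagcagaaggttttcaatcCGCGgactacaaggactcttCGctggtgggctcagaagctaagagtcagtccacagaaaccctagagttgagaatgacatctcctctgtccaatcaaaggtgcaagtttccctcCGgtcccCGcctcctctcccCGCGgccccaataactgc
Rtn1: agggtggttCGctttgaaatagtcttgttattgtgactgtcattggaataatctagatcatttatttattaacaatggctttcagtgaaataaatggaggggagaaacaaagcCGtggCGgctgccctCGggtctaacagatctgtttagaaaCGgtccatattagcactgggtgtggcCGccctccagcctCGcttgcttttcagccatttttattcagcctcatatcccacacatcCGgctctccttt
Stx1a: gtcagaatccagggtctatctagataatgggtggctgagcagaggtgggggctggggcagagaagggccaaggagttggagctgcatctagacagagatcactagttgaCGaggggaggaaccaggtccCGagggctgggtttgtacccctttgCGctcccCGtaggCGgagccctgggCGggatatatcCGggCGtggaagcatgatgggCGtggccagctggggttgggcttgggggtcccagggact
The Map2 window held 34 CpG pairs, against 7 in Cntn1, 8 in Rtn1 and 9 in Stx1a. Over the 21 tested genes with a window, the median ratio of observed to expected CpG was 0.63 and the median GC content 56.4%. The same medians were 0.74 and 60.0% over all 8141 tested genes with a window. Among the 3 lower genes shown, the ratio ran from 0.41 in Cntn1 and 0.63 in Rtn1 to 0.86 in Map2, and it was 0.42 in Stx1a. REST binds an element with the parts TTCAGCACC and GGACAG. The shorter of these was present on either strand in the windows of 7 of the 21 genes (33.3%), of 19.5% of all tested genes and of 18.7% of all 27025 genes with a window. The longer one was found in none of the 21 windows and in 0.344% of the windows of all tested genes. These matches describe letters in short windows and not binding.

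Array brightness varied between replicates. The mean signal ranged from 317.5 to 561.9, with 13654 to 16776 probes detected per array. Replicates 1 and 2 of hNanog iPS, 3 of mNanog iPS, 1 of ES and 1 and 3 of NS were brighter, and the other 6 arrays dimmer. Arrays of the same brightness in different groups deviated together (median correlation 0.3 over 26 pairs, against -0.254 over 28 pairs of unlike brightness), so values within brighter and within dimmer arrays are given where a comparison turns on them. The 7 pluripotency markers had a summed signal of 76700 to 79400 in hNanog iPS, 78600 to 81600 in mNanog iPS, 81500 to 84500 in ES and 279 to 310 in NS. Of 14 neural stem markers 11 were tested, and they summed to 1260 to 1380 in hNanog iPS, 2140 to 2360 in mNanog iPS, 2360 to 2620 in ES and 78000 to 83400 in NS. Nanog itself averaged 11.03 in hNanog iPS, 11.46 in mNanog iPS, 13.04 in ES and 4.72 in NS on the log2 scale, and was detected on no NS array.

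Most of the neuronal genes read lower in the pluripotent cells than in NS cells. Of the 29, 4 higher and 23 lower were called in hNanog iPS minus NS, against 40.5% higher and 37.3% lower of all 10043 genes. In mNanog iPS minus NS, 5 higher and 22 lower were called, against 38.8% and 38.3% of all genes. In ES minus NS, 5 higher and 20 lower were called, against 40.4% and 36.9%. A call needed an adjusted p-value under 0.05 (limma, Benjamini-Hochberg over 18185 probes) and detection on at least 1 array of the groups compared. The 3 comparisons share the NS arrays. Over the 29 genes the median difference was -1.68 in hNanog iPS minus NS, -1.86 in mNanog iPS minus NS and -2.22 in ES minus NS on the log2 scale, beside 0.08, 0.05 and 0.07 over all genes. With genes not above background placed at their bound, these medians were -1.51, -1.52 and -1.49. The summed signal of the 29 genes was 4650 to 4830 in hNanog iPS, 4450 to 4540 in mNanog iPS, 4400 to 4540 in ES and 23400 to 25600 in NS. These are bulk samples, in which fewer cells of a type and less RNA per cell cannot be told apart.

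**Figure D1:**
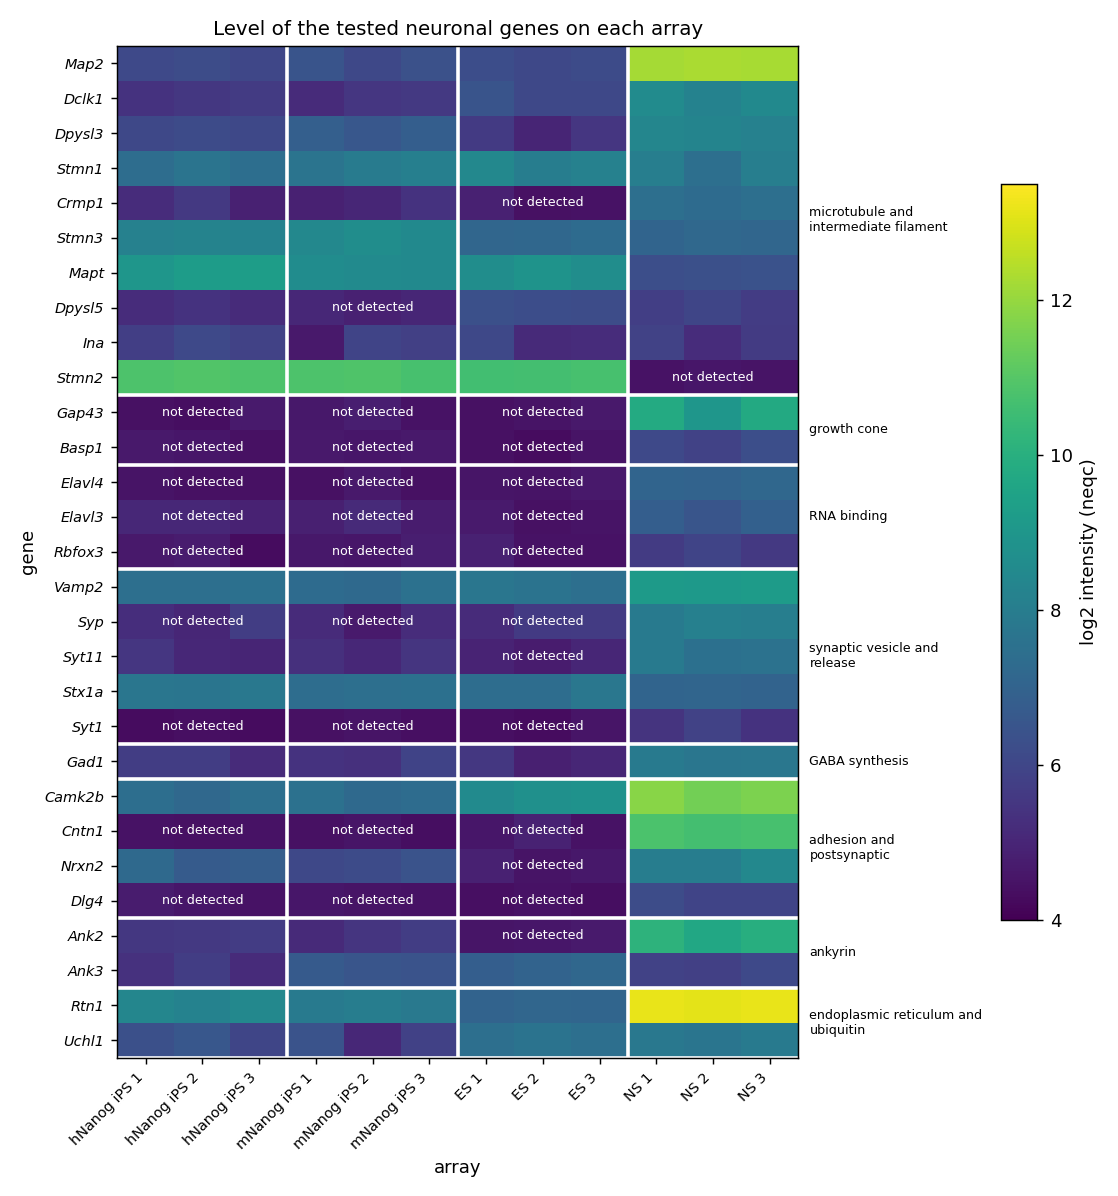
Normalised log2 intensity (colour) of the 29 tested neuronal genes (rows, by role) on each of the 12 arrays (columns, by group). "Not detected" marks groups in which no array of the 3 detected the gene's probe; 9 genes are detected in NS alone and Stmn2 is the reverse, at 10.64 to 10.91 on the 9 iPS and ES arrays and not detected in NS.

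The detection filter bears on these counts. Gap43, Basp1, Rbfox3, Elavl3, Elavl4, Syp, Syt1, Dlg4 and Cntn1 were detected on all 3 NS arrays and on none of the 9 others, a pattern that 7.2% of all genes had. These 9 passed the filter through NS alone and so had to differ, and their calls lend no weight to the direction of the group. Another 8 genes were detected on all 12 arrays (66.9% of all genes were), namely Map2, Mapt, Stmn1, Stmn3, Stx1a, Vamp2, Camk2b and Rtn1. Among these 8, Map2, Vamp2, Camk2b and Rtn1 were called lower in all 3 comparisons with NS, and Mapt and Stx1a higher in all 3. Just inside the filter stood probes detected on exactly 3 arrays, such as Basp1 in NS. Just outside it stood Dcx, which encodes the microtubule protein doublecortin of migrating young neurons. Its probes were each detected on 2 NS arrays and on no other, with lowest detection p-values of 0.0064 and 0.0043. Tubb3, Stmn4, Snap25, Gad2 and Nlgn3 were not analysed here. In NS, the neuron markers Map2, Mapt, Rbfox3, Syt1, Syp, Elavl3 and Elavl4 were detected on all 3 arrays, Dcx on 2 by either probe, and Stmn2 on 0. Levels below are normalised log2 intensities, differences are on the log2 scale with a standard error (SE), and probes of different genes are not compared in level.

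Among the 10 tested genes of the microtubule and intermediate filament group, 3 were higher and 5 lower in hNanog iPS minus NS, 3 and 5 in mNanog iPS minus NS, and 3 and 4 in ES minus NS. In the same order, 40.5% and 37.3%, 38.8% and 38.3%, and 40.4% and 36.9% of all genes were called higher and lower. Map2, the dendritic microtubule-stabilising protein, had the largest fall of the 10 genes in each comparison. The level of Map2 was 6.08, 6.22 and 6.01 in hNanog iPS, 6.45, 6.06 and 6.36 in mNanog iPS, 6.25, 6.05 and 6.16 in ES, against 12.24, 12.30 and 12.25 in NS. Every NS array stood far above the other 9, which overlapped each other. The differences were -6.16 ± 0.11 in hNanog iPS minus NS, -5.97 ± 0.11 in mNanog iPS minus NS and -6.11 ± 0.11 in ES minus NS (SE, adjusted p = 1.2e-13, 1.5e-13 and 1.3e-13 in that order). The other 3 tested Map2 probes were detected on the NS arrays alone, so the filter fixed their direction. By 2 of them ES was at least 4.28 and 6.95-fold lower than NS, and the last gave no bound above 1.

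Dclk1, a microtubule-associated kinase related to doublecortin, was also highest in NS. In hNanog iPS Dclk1 gave 5.38, 5.55 and 5.65, in mNanog iPS 5.18, 5.50 and 5.59, in ES 6.46, 6.05 and 6.05, and NS gave 8.59, 8.20 and 8.52. The ES arrays lay above all 6 iPS arrays, and only 1 array of each iPS group detected the probe. Differences were -2.91 ± 0.15 in hNanog iPS minus NS, -3.01 ± 0.15 in mNanog iPS minus NS and -2.25 ± 0.15 in ES minus NS (adjusted p = 2.3e-09, 1.6e-09 and 2.8e-08). Crmp1 and Dpysl3 belong to the collapsin response mediator proteins, which link semaphorin signals to microtubules in growing axons. Values of Crmp1 were 5.19, 5.57 and 4.88 in hNanog iPS, 4.87, 5.02 and 5.38 in mNanog iPS, 4.86, 4.43 and 4.46 in ES, against 7.46, 7.33 and 7.47 in NS. No ES array detected Crmp1, and 1 array of each iPS group did, so ES was at least 3.56-fold lower than NS (adjusted p = 1.8e-08). A lower bound of this kind sets the detected group against the lowest detected level of each array. Dpysl3 read 6.05, 6.16 and 6.05 on the hNanog iPS arrays, 6.88, 6.59 and 6.82 on the mNanog iPS arrays, 5.60, 4.97 and 5.50 on the ES arrays and 8.37, 8.30 and 8.18 on the NS arrays. For Dpysl3 the groups were fully apart, in the order NS, mNanog iPS, hNanog iPS, ES, with 1 ES array detected. The differences from NS were -2.19 ± 0.15 in hNanog iPS, -1.52 ± 0.15 in mNanog iPS and -2.92 ± 0.15 in ES (adjusted p = 2.9e-08, 1e-06 and 1.7e-09).

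Dpysl5, another member of that family, split by group and by probe. The level of Dpysl5 was 5.19, 5.41 and 5.17 in hNanog iPS, 5.04, 4.86 and 5.02 in mNanog iPS, 6.33, 6.23 and 6.22 in ES, against 5.77, 5.99 and 5.70 in NS. By this probe, which no mNanog iPS array and 1 hNanog iPS array detected, ES stood above NS and the iPS groups below it. Differences were -0.56 ± 0.10 in hNanog iPS minus NS and 0.45 ± 0.10 in ES minus NS (adjusted p = 0.00029 and 0.0017), while mNanog iPS was at least 1.15-fold lower than NS. The other Dpysl5 probe was not detected in NS and was called higher in all 3 comparisons with NS, by at least 1.12-fold in hNanog iPS, 1.07-fold in mNanog iPS and 1.95-fold in ES. With the mean of both probes the hNanog iPS difference was 0.14 (adjusted p = 0.22), so the direction against NS depends on the probe. With median scaling of the arrays Dpysl5 was 0.007 in ES minus NS (adjusted p = 0.99). Within dimmer arrays alone, where NS had replicate 2 only, it was 0.24.

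Stmn2 and Mapt were higher than in NS in all 3 comparisons. Stmn2 encodes SCG10, a stathmin of growing axons. In hNanog iPS Stmn2 gave 10.84, 10.91 and 10.85, in mNanog iPS 10.84, 10.90 and 10.74, in ES 10.64, 10.67 and 10.74, and NS gave 4.46, 4.57 and 4.51. The 9 iPS and ES values all lay from 10.64 to 10.91, and no NS array detected it. Its level in hNanog iPS was above that in NS by at least 49.9-fold, that in mNanog iPS by at least 48.4-fold and that in ES by at least 44-fold (adjusted p = 9.8e-15, 8.9e-15 and 1e-14). Detection on all 9 iPS and ES arrays and on no NS array was seen in 4.07% of all genes. Another Stmn2 probe was detected on 1 array and was not tested. Mapt encodes tau, the axonal microtubule-binding protein. Values of Mapt were 9.00, 9.27 and 9.29 in hNanog iPS, 8.61, 8.56 and 8.50 in mNanog iPS, 8.64, 8.87 and 8.67 in ES, against 6.26, 6.33 and 6.38 in NS. All 9 iPS and ES arrays stood above NS. Mapt was higher than in NS by 2.86 ± 0.10 in hNanog iPS, 2.23 ± 0.10 in mNanog iPS and 2.40 ± 0.10 in ES (adjusted p = 5e-11, 5.4e-10 and 2.6e-10). The other tested Mapt probe gave smaller differences of 1.07, 0.56 and 0.31, of which that in ES was not called (adjusted p = 0.11).

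The remaining members of the group moved little between ES and NS. Stmn1 and Stmn3 are stathmins, which bind free tubulin and promote microtubule turnover. Stmn1 read 7.39, 7.66 and 7.42 on the hNanog iPS arrays, 7.64, 7.93 and 8.09 on the mNanog iPS arrays, 8.45, 8.04 and 8.17 on the ES arrays and 8.05, 7.45 and 8.06 on the NS arrays. Its groups overlapped in each comparison with NS, and none passed the threshold (adjusted p = 0.08 in hNanog iPS, 0.87 in mNanog iPS and 0.083 in ES). The 95% interval in ES minus NS ran from -0.03 to 0.75. With brightness as a block, Stmn1 did pass in hNanog iPS minus NS (-0.37, adjusted p = 0.014) and in ES minus NS (0.47, adjusted p = 0.0037). The level of Stmn3 was 8.18, 8.23 and 8.21 in hNanog iPS, 8.44, 8.64 and 8.52 in mNanog iPS, 7.14, 7.18 and 7.34 in ES, against 7.05, 7.22 and 7.14 in NS. The 6 iPS arrays lay above all ES and NS arrays, which overlapped. Stmn3 was higher than in NS by 1.07 ± 0.09 in hNanog iPS and 1.40 ± 0.09 in mNanog iPS (adjusted p = 2.1e-07 and 1.5e-08), and ES minus NS was 0.08 ± 0.09 with a 95% interval of -0.11 to 0.28. Ina, the neuronal intermediate filament alpha-internexin, was detected on 8 arrays, ranged from 4.65 to 6.11 and was called in no comparison.

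Both growth cone genes were detected in NS alone. Gap43 encodes neuromodulin, a membrane phosphoprotein of growth cones. In hNanog iPS Gap43 gave 4.42, 4.36 and 4.68, in mNanog iPS 4.62, 4.81 and 4.46, in ES 4.42, 4.50 and 4.66, and NS gave 9.81, 8.98 and 9.77. NS replicate 2, a dimmer array, read lowest of the NS arrays, and the other groups sat at background. Relative to NS, Gap43 was at least 16.1-fold lower in hNanog iPS, 15-fold lower in mNanog iPS and 15.3-fold lower in ES. Basp1 is a related substrate of protein kinase C at the axon membrane. Values of Basp1 were 4.64, 4.56 and 4.43 in hNanog iPS, 4.64, 4.56 and 4.66 in mNanog iPS, 4.43, 4.33 and 4.49 in ES, against 6.10, 5.89 and 6.28 in NS. It read close to background in NS as well, which left bounds of at least 1.49, 1.38 and 1.41-fold lower in hNanog iPS, mNanog iPS and ES.

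The 3 RNA-binding genes shared this pattern. Rbfox3 encodes NeuN, the splicing factor used to stain mature neurons, and Elavl3 and Elavl4 encode Hu proteins that stabilise neuronal mRNAs. Rbfox3 read 4.64, 4.72 and 4.32 on the hNanog iPS arrays, 4.62, 4.57 and 4.81 on the mNanog iPS arrays, 4.88, 4.46 and 4.45 on the ES arrays and 5.67, 5.97 and 5.58 on the NS arrays. The level of Elavl3 was 5.06, 5.05 and 4.92 in hNanog iPS, 4.83, 5.12 and 4.73 in mNanog iPS, 4.67, 4.44 and 4.50 in ES, against 6.85, 6.52 and 6.90 in NS. In hNanog iPS Elavl4 gave 4.50, 4.44 and 4.44, in mNanog iPS 4.44, 4.63 and 4.44, in ES 4.54, 4.51 and 4.64, and NS gave 7.04, 7.03 and 7.16. No array outside NS detected any of them, and NS arrays lay above all others for each. Rbfox3 was close to background even in NS, and its bounds were at least 1.17, 1.09 and 1.11-fold lower in hNanog iPS, mNanog iPS and ES. Elavl3 was at least 2.36, 2.2 and 2.24-fold lower in those groups, and Elavl4 at least 2.95, 2.75 and 2.81-fold lower. The other tested probe of Rbfox3 and that of Elavl4 were likewise detected in NS alone, which fixed their direction.

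Of the 5 tested vesicle and release genes, 4 were lower and 1 higher in each comparison with NS. Of all genes, 31.9% were lower in all 3 comparisons and 32.6% higher. For Syp and Syt1, detected in NS alone, the filter fixed the direction. Vamp2 encodes synaptobrevin 2, the SNARE protein of the vesicle membrane. Values of Vamp2 were 7.46, 7.48 and 7.51 in hNanog iPS, 7.31, 7.25 and 7.55 in mNanog iPS, 7.74, 7.63 and 7.46 in ES, against 9.18, 9.09 and 9.22 in NS. NS arrays stood apart from the 9 others, which overlapped between groups. Vamp2 was lower, at -1.68 ± 0.10 in hNanog iPS minus NS, -1.79 ± 0.10 in mNanog iPS minus NS and -1.55 ± 0.10 in ES minus NS (adjusted p = 1e-08, 5.5e-09 and 2.2e-08). Syp encodes synaptophysin, the abundant vesicle membrane protein, and Syt1 the calcium sensor of fast release. Syp read 5.24, 5.01 and 5.74 on the hNanog iPS arrays, 5.16, 4.68 and 5.19 on the mNanog iPS arrays, 5.18, 5.61 and 5.66 on the ES arrays and 7.89, 8.14 and 8.05 on the NS arrays. The level of Syt1 was 4.31, 4.37 and 4.33 in hNanog iPS, 4.42, 4.49 and 4.38 in mNanog iPS, 4.37, 4.30 and 4.53 in ES, against 5.43, 5.89 and 5.38 in NS. Outside NS, no array detected Syp or Syt1. Syp was at least 5.7, 5.31 and 5.42-fold lower in hNanog iPS, mNanog iPS and ES. Syt1 stood so near background in NS that only hNanog iPS allowed a bound, of at least 1.04-fold lower.

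Syt11 is a synaptotagmin that lacks calcium binding. In hNanog iPS Syt11 gave 5.52, 5.04 and 4.98, in mNanog iPS 5.32, 5.04 and 5.45, in ES 4.96, 4.73 and 5.04, and NS gave 7.89, 7.53 and 7.57. Its NS arrays stood above all others, no ES array detected it and 1 array of each iPS group did. The differences from NS were -2.48 ± 0.16 in hNanog iPS and -2.39 ± 0.16 in mNanog iPS, and ES was at least 4.2-fold lower (adjusted p = 2.4e-08, 3.5e-08 and 8.7e-09). A further Syt11 probe, detected in NS alone, was at least 10.9, 10.2 and 10.4-fold lower. Stx1a, which encodes the plasma membrane SNARE syntaxin 1A, went the other way. Values of Stx1a were 7.72, 7.67 and 7.79 in hNanog iPS, 7.40, 7.45 and 7.52 in mNanog iPS, 7.38, 7.41 and 7.77 in ES, against 7.06, 7.10 and 7.01 in NS. The 9 iPS and ES arrays lay above the 3 NS arrays. Stx1a was higher by 0.67 ± 0.10 in hNanog iPS minus NS, 0.40 ± 0.10 in mNanog iPS minus NS and 0.46 ± 0.10 in ES minus NS (adjusted p = 6.9e-05, 0.0037 and 0.0014). With median scaling of the arrays Stx1a passed in none of the 3, at 0.41 in hNanog iPS minus NS (adjusted p = 0.29), -0.14 in mNanog iPS minus NS (adjusted p = 0.75) and -0.05 in ES minus NS (adjusted p = 0.91).

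Gad1, the enzyme that makes GABA from glutamate, was the tested GABA synthesis gene. Gad1 read 5.74, 5.72 and 5.16 on the hNanog iPS arrays, 5.39, 5.32 and 5.90 on the mNanog iPS arrays, 5.54, 4.85 and 5.00 on the ES arrays and 7.93, 7.71 and 7.76 on the NS arrays. It was detected on 2 hNanog iPS arrays and on 1 array each of mNanog iPS and ES, all below NS. Gad1 was lower, at -2.27 ± 0.21 in hNanog iPS minus NS, -2.26 ± 0.21 in mNanog iPS minus NS and -2.67 ± 0.21 in ES minus NS (adjusted p = 6.6e-07, 6.5e-07 and 1.3e-07). Another of its probes, detected outside NS on 1 array, was also called lower in all 3, and the last was called in none (differences of 0.15, 0.07 and -0.18).

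By the probes used, all 4 tested adhesion and postsynaptic genes were lower than in NS in the 3 comparisons, beside 31.9% of all genes. For Cntn1 and Dlg4, detected in NS alone, the filter fixed the direction. Cntn1 encodes contactin 1, an axonal cell adhesion molecule, and Dlg4 encodes PSD-95, the scaffold of excitatory synapses. The level of Cntn1 was 4.45, 4.43 and 4.45 in hNanog iPS, 4.43, 4.52 and 4.35 in mNanog iPS, 4.58, 4.92 and 4.45 in ES, against 10.83, 10.66 and 10.74 in NS. In hNanog iPS Dlg4 gave 4.71, 4.58 and 4.48, in mNanog iPS 4.57, 4.49 and 4.46, in ES 4.38, 4.45 and 4.34, and NS gave 6.20, 5.96 and 5.94. Both were detected in NS alone, with no overlap. Cntn1 was at least 37.4-fold lower in hNanog iPS, 34.8-fold in mNanog iPS and 35.6-fold in ES (adjusted p = 1.3e-13, 1.3e-13 and 1.6e-13). Dlg4 was at least 1.43, 1.33 and 1.36-fold lower in these groups. Camk2b encodes the beta subunit of the calcium and calmodulin kinase that acts at synapses. Values of Camk2b were 7.43, 7.20 and 7.46 in hNanog iPS, 7.55, 7.24 and 7.36 in mNanog iPS, 8.54, 8.76 and 8.84 in ES, against 11.82, 11.47 and 11.63 in NS. NS stood highest, ES next, and the iPS groups overlapped each other at the bottom. Camk2b was lower, at -4.27 ± 0.13 in hNanog iPS minus NS, -4.25 ± 0.13 in mNanog iPS minus NS and -2.93 ± 0.13 in ES minus NS (adjusted p = 1.1e-11, 1.2e-11 and 3.8e-10). Nrxn2 encodes a presynaptic neurexin, the partner of neuroligins. Nrxn2 read 7.26, 6.72 and 6.81 on the hNanog iPS arrays, 6.04, 6.16 and 6.44 on the mNanog iPS arrays, 4.86, 4.48 and 4.61 on the ES arrays and 8.03, 8.01 and 8.42 on the NS arrays. The groups did not overlap, in the order NS, hNanog iPS, mNanog iPS, ES, and no ES array detected the probe. The differences from NS were -1.23 ± 0.17 in hNanog iPS and -1.94 ± 0.17 in mNanog iPS, and ES was at least 5.92-fold lower (adjusted p = 2.7e-05, 3.7e-07 and 1.2e-09). Another Nrxn2 probe was called higher in hNanog iPS minus NS (0.43, limma adjusted p = 0.043). It was not called in mNanog iPS minus NS (-0.37, adjusted p = 0.078), so the direction in the iPS groups depends on the probe.

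Ankyrins fasten ion channels and adhesion molecules to the spectrin skeleton. The level of Ank2 was 5.53, 5.58 and 5.68 in hNanog iPS, 5.13, 5.46 and 5.74 in mNanog iPS, 4.55, 4.59 and 4.70 in ES, against 10.14, 9.68 and 9.95 in NS. Ank2 stood far higher on all NS arrays, and was detected on 2 hNanog iPS arrays, 1 mNanog iPS array and no ES array. It was lower, at -4.33 ± 0.15 in hNanog iPS minus NS and -4.48 ± 0.15 in mNanog iPS minus NS, and ES was at least 20.2-fold lower (adjusted p = 5e-11, 3.6e-11 and 7.3e-12). In hNanog iPS Ank3 gave 5.36, 5.72 and 5.15, in mNanog iPS 6.70, 6.51 and 6.45, in ES 6.85, 7.04 and 7.16, and NS gave 5.86, 5.80 and 6.10. For Ank3, the ankyrin of the axon initial segment, ES was highest and hNanog iPS, detected on 1 array, lowest. Differences were -0.51 ± 0.15 in hNanog iPS minus NS, 0.63 ± 0.15 in mNanog iPS minus NS and 1.10 ± 0.15 in ES minus NS (adjusted p = 0.0072, 0.0017 and 1.9e-05). The other Ank3 probe, not detected in NS, was called higher in all 3, by at least 1.66, 1.63 and 3.43-fold in hNanog iPS, mNanog iPS and ES. With the mean of both probes hNanog iPS minus NS was 0.32 (adjusted p = 0.063), so the direction in hNanog iPS depends on the probe. With median scaling of the arrays Ank3 was 0.15 in mNanog iPS minus NS (adjusted p = 0.71) and 0.62 in ES minus NS (adjusted p = 0.094).

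Rtn1 encodes a reticulon of the neuronal endoplasmic reticulum. Values of Rtn1 were 8.34, 8.22 and 8.42 in hNanog iPS, 7.89, 8.03 and 7.82 in mNanog iPS, 7.03, 7.15 and 7.09 in ES, against 13.19, 13.13 and 13.19 in NS. The groups did not overlap, and ran in the order NS, hNanog iPS, mNanog iPS, ES. Rtn1 was lower, at -4.84 ± 0.09 in hNanog iPS minus NS, -5.25 ± 0.09 in mNanog iPS minus NS and -6.08 ± 0.09 in ES minus NS (adjusted p = 1.3e-13, 6.9e-14 and 2.2e-14). All 5 tested Rtn1 probes were called lower in each of the 3 comparisons, of which 2 were detected on all 12 arrays and 1 on the NS arrays alone. Uchl1 encodes a ubiquitin hydrolase abundant in neurons. Uchl1 read 6.30, 6.58 and 5.97 on the hNanog iPS arrays, 6.43, 5.06 and 5.83 on the mNanog iPS arrays, 7.46, 7.61 and 7.48 on the ES arrays and 7.82, 7.68 and 7.89 on the NS arrays. The iPS arrays lay below ES and NS, with mNanog iPS replicate 2 lowest and not detected. Differences were -1.51 ± 0.27 in hNanog iPS minus NS and -2.02 ± 0.27 in mNanog iPS minus NS (adjusted p = 0.00021 and 1.7e-05), while ES minus NS was -0.28 ± 0.27 (adjusted p = 0.35, 95% interval -0.86 to 0.30).

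**Figure D2:**
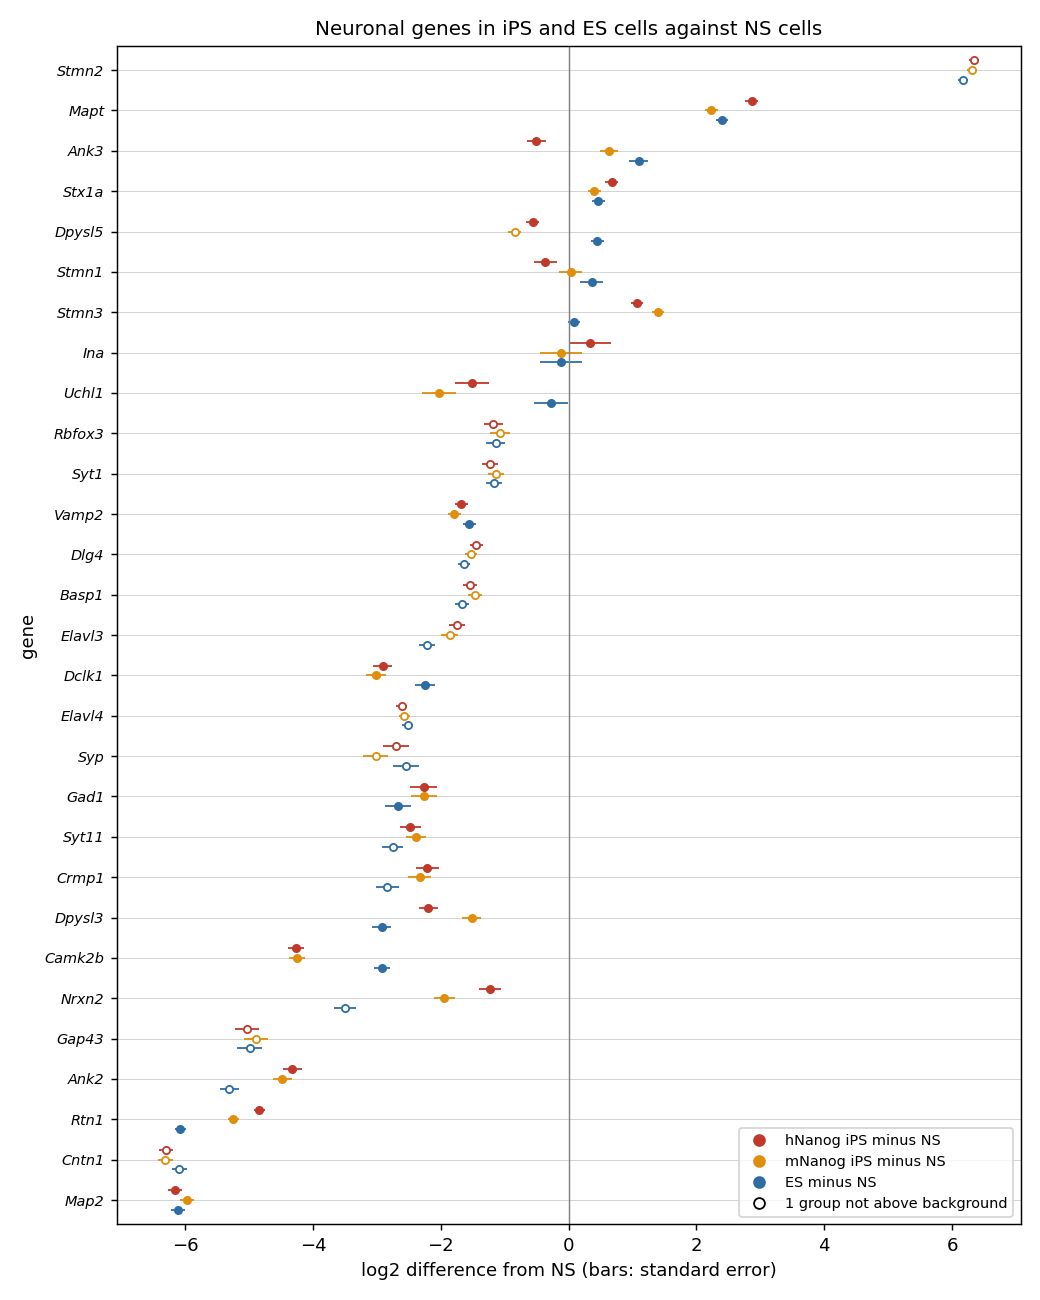
Difference from NS on the log2 scale (points) with its standard error (bars) for each tested neuronal gene in hNanog iPS, mNanog iPS and ES, ordered by the difference in ES. Open points mark pairs of groups of which 1 was not above background, where the fitted value is not a bound; 20 genes lie below 0 by a call in all 3 comparisons and Mapt, Stmn2 and Stx1a above 0 in all 3.

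Across the roles, 20 of the 29 genes were called lower in all 3 comparisons with NS (31.9% of all genes were), and 3 were called higher in all 3 (32.6% of all genes). The 20 include the 9 genes detected in NS alone, and the 3 include Stmn2, not detected in NS. The filter fixed the direction of these genes. All 79 calls against NS kept their direction with brightness as a block and within brighter and dimmer arrays alone. Calls of those 9 genes and of Stmn2 are among the 79 and lend no weight to this. NS replicate 2 was the only dimmer NS array.

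The comparisons of iPS with ES ask how far the reprogrammed cells match ES cells in these genes. In hNanog iPS minus ES, 7 higher and 6 lower of the 29 were called, beside 14.7% higher and 13.8% lower of all genes. In mNanog iPS minus ES, 5 higher and 5 lower were called, beside 17.3% and 18.4%. Both comparisons share the ES arrays. The median difference over the 29 genes was 0.13 in hNanog iPS minus ES and 0.07 in mNanog iPS minus ES, beside -0.01 and -0.03 over all genes. Stmn3, Dpysl3, Nrxn2, Ank2 and Rtn1 were called higher than ES in both iPS groups, a pattern of 10.6% of all genes. Dclk1, Dpysl5, Camk2b, Ank3 and Uchl1 were called lower in both, as were 9.92% of all genes. None of the 10 tested growth cone, RNA-binding and vesicle genes was called by limma in these comparisons without a block. Of them, Gap43, Basp1, Rbfox3, Elavl3, Elavl4, Syp and Syt1 were detected on no iPS or ES array. They could therefore not be called here, whatever their difference. With brightness as a block Vamp2 was called in mNanog iPS minus ES (-0.24, adjusted p = 0.044), as it was without mNanog iPS replicate 3 (0.029) or ES replicate 3 (0.049), and Stx1a was called in hNanog iPS minus ES without ES replicate 3 (0.33, adjusted p = 0.021). With no block, 1 of the 10 genes had an unadjusted p under 0.05 (limma) in hNanog iPS minus ES and 4 in mNanog iPS minus ES. The share of all genes at that threshold is not given here, so these counts cannot be read as few or many. Elavl3 and Syp, among the 4, were detected on no iPS or ES array. Elavl3 in hNanog iPS minus ES had an adjusted p of 0.017 but was detected in neither group.

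Rtn1 had hNanog iPS above ES by 1.24 ± 0.09 and mNanog iPS by 0.82 ± 0.09 (adjusted p = 8.1e-07 and 1.5e-05). Another Rtn1 probe detected on all 12 arrays gave 1.66 and 1.00. Nrxn2 was higher in hNanog iPS by at least 2.53-fold and at least 1.54-fold higher in mNanog iPS than in ES (adjusted p = 1.4e-06 and 2e-05). Stmn3 was higher by 0.99 ± 0.09 in hNanog iPS and 1.31 ± 0.09 in mNanog iPS (adjusted p = 6e-06 and 3e-07). Dpysl3 was higher by 0.73 ± 0.15 and 1.41 ± 0.15 in the same order (adjusted p = 0.0031 and 1.5e-05). Ank2, not detected in ES, was higher in hNanog iPS by at least 1.01-fold, and its 0.83 in mNanog iPS minus ES (adjusted p = 0.0011) gave no bound above 1. Of these 5 genes, Dpysl3, Nrxn2 and Rtn1 had all 6 iPS arrays detected and lying between the ES and the NS arrays, with NS highest. That count was defined after the values were seen, and 3.83% of all genes had the pattern. For Nrxn2 the pattern depends on the probe. By another Nrxn2 probe detected on all iPS and NS arrays, hNanog iPS stood above NS (0.43, limma adjusted p = 0.043) and mNanog iPS overlapped NS. No member had the reverse order with ES highest, which 5.61% of all genes had.

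Camk2b was lower, at -1.34 ± 0.13 in hNanog iPS minus ES and -1.33 ± 0.13 in mNanog iPS minus ES (adjusted p = 9.2e-06 and 6.2e-06). Uchl1 was lower, at -1.23 ± 0.27 and -1.74 ± 0.27 (adjusted p = 0.0046 and 0.00031). Dclk1, detected on 1 array of each iPS group, was lower, at -0.66 ± 0.15 and -0.76 ± 0.15 (adjusted p = 0.0066 and 0.002). Dpysl5 was lower, at -1.01 ± 0.10 in hNanog iPS minus ES and at least 1.56-fold lower in mNanog iPS (adjusted p = 1.9e-05 and 1.4e-06), and its other probe was also called lower in both. Ank3 was lower, at -1.60 ± 0.15 in hNanog iPS minus ES and -0.46 ± 0.15 in mNanog iPS minus ES (adjusted p = 7.2e-06 and 0.029), and its other probe was called lower in both, by -1.04 and -1.08. The probes of Dpysl5 and of Ank3 that differed in direction against NS ran the same way against ES.

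With no block, calls against ES in 1 iPS group only were Mapt and Crmp1 (higher) and Stmn1 (lower), all in hNanog iPS. Mapt was 0.46 ± 0.10 and Stmn1 -0.73 ± 0.18 in hNanog iPS minus ES (adjusted p = 0.0047 and 0.0099), and in mNanog iPS minus ES they were -0.17 ± 0.10 and -0.33 ± 0.18 (adjusted p = 0.23 and 0.19). Crmp1, detected on no ES array and on 1 array of each iPS group, gave 0.63 ± 0.18 in hNanog iPS minus ES (adjusted p = 0.024) and 0.51 ± 0.18 in mNanog iPS minus ES (adjusted p = 0.051), and neither difference gave a bound above 1. With brightness as a block, mNanog iPS minus ES was also called for Crmp1 (0.51, adjusted p = 0.0034) and Stmn1 (-0.33, adjusted p = 0.046), and Gad1 was called higher (0.41, adjusted p = 0.011), which with Vamp2 made 7 higher and 7 lower. Between the iPS groups themselves the difference passed for Mapt of these 3, and gave adjusted p = 0.17 for Stmn1 and 0.73 for Crmp1. With brightness as a block it passed for Stmn1 too (-0.51, adjusted p = 0.014), and within brighter arrays alone the Stmn1 difference was -0.57. The Crmp1 call in hNanog iPS minus ES was lost on leaving out hNanog iPS replicate 1 (adjusted p = 0.059) or 2 (0.1), or ES replicate 2 (0.087) or 3 (0.083). The Ank3 call in mNanog iPS minus ES was lost without mNanog iPS replicate 2 (adjusted p = 0.08) or 3 (0.089), without ES replicate 2 (0.074) or 3 (0.1), and with replicate number as a block (0.051).

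The size of these differences depends on the processing. In the authors' processed values all 29 calls among hNanog iPS, mNanog iPS and ES kept their direction, but on the scale of that table, taken as log2, the differences here were 1.26 to 4.56 times as large (median 2.52). Nrxn2 in hNanog iPS minus ES was 0.68 there and Dpysl3 in mNanog iPS minus ES 0.43. Of the 29 calls among the iPS and ES groups, including hNanog iPS against mNanog iPS, all kept their direction within brighter and within dimmer arrays. These subsets come from the arrays on which the calls were made, so a kept direction lends little weight. Replicate 3 of mNanog iPS and 1 of ES were the only brighter arrays of their groups. Replicate 3 of hNanog iPS was its only dimmer array. Differences within brighter or dimmer arrays are therefore given as effect sizes only. Rtn1 in hNanog iPS minus ES was 1.25 within brighter and 1.30 within dimmer arrays, and in mNanog iPS minus ES 0.79 and 0.84. Nrxn2 was 2.13 and 2.26 in hNanog iPS minus ES and 1.58 and 1.55 in mNanog iPS minus ES. Camk2b was -1.22 and -1.33 in hNanog iPS minus ES and -1.18 and -1.40 in mNanog iPS minus ES. The remaining values of the 10 shared genes ran from -1.94 (Ank3, hNanog iPS, dimmer) to 1.50 (Dpysl3, mNanog iPS, dimmer). With median scaling of the arrays, 3 higher and 2 lower were called in hNanog iPS minus ES and 3 higher and 3 lower in mNanog iPS minus ES, all of them among the calls above. Calls over all 18185 probes fell with that scaling from 4752 to 730 and from 5968 to 927 in the same order.

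**Figure D3:**
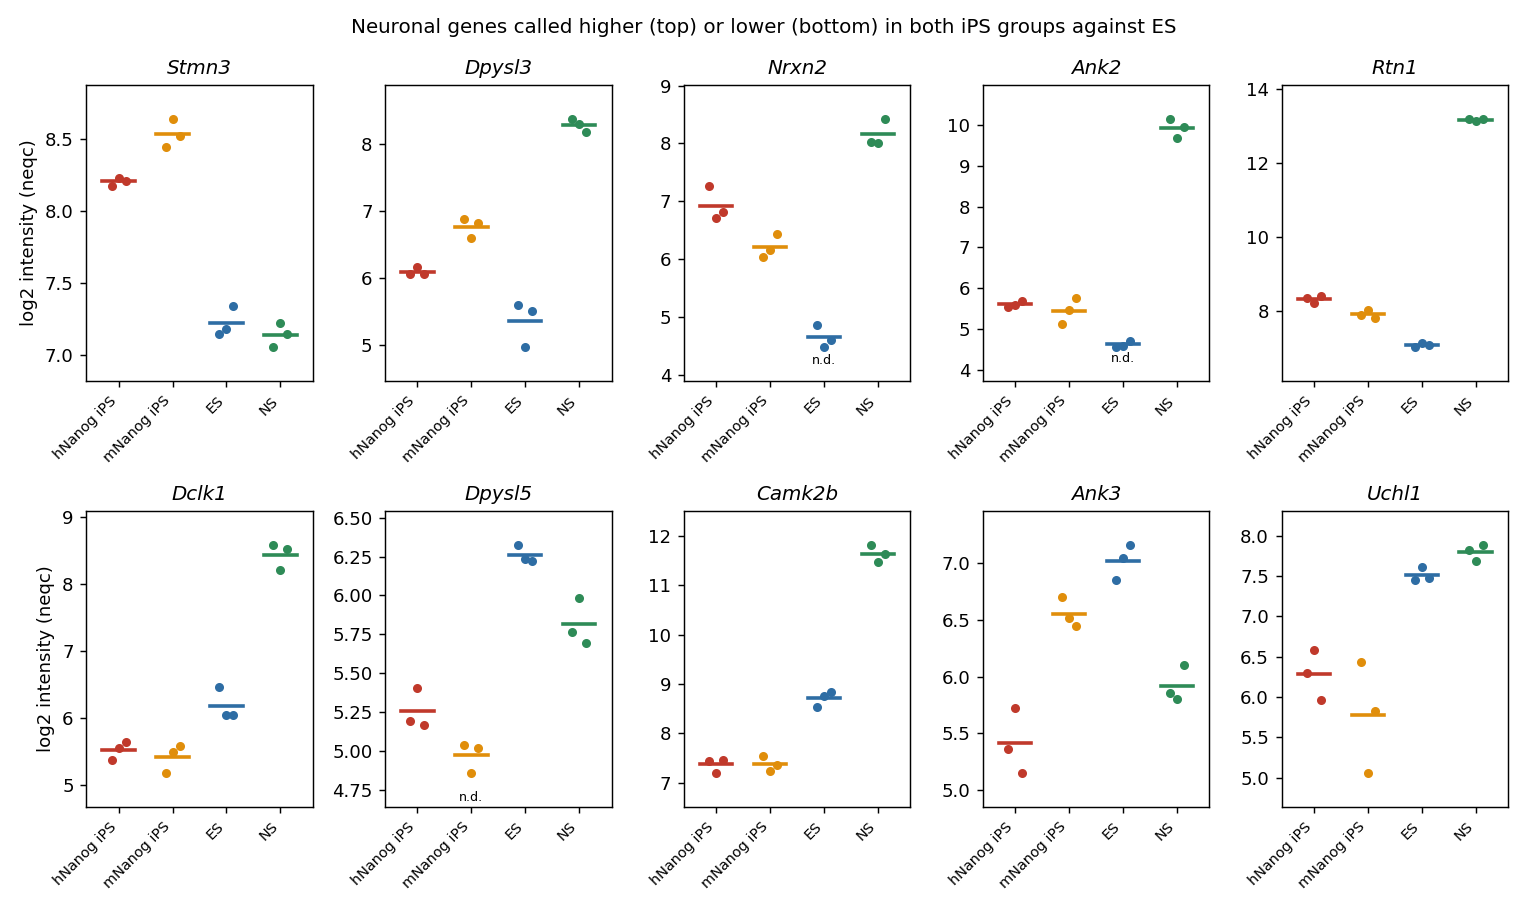
Normalised log2 intensity of each array (points) and group mean (bars) for the neuronal genes called higher (top row) or lower (bottom row) in both iPS groups than in ES; each panel has its own vertical axis, which does not start at 0, and n.d. marks groups with no detected array. Dpysl3, Nrxn2 and Rtn1 have all iPS points between ES and NS, and Camk2b has its iPS means (7.37 and 7.38) below ES (8.71) and NS (11.64). Each gene is shown by its tested probe with the highest mean, and another Nrxn2 probe has hNanog iPS above NS.

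In hNanog iPS minus mNanog iPS, 3 higher and 3 lower of the 29 genes were called, beside 7.09% higher and 8.53% lower of all genes, and the median over the 29 was 0.04. Mapt was higher in hNanog iPS by 0.63 ± 0.10, Nrxn2 by 0.71 ± 0.17 and Rtn1 by 0.41 ± 0.09 (adjusted p = 0.0011, 0.015 and 0.0075). Ank3 was lower in hNanog iPS, at -1.14 ± 0.15, Dpysl3 at -0.68 ± 0.15 and Stmn3 at -0.33 ± 0.09 (adjusted p = 0.00021, 0.0089 and 0.027). The groups did not overlap for any of these 6, as the values above show. Of the 29 genes, 5 lay higher and 4 lower without overlap, beside 18.6% higher and 17.4% lower of all genes. A further probe of Nrxn2 (0.80) and of Rtn1 (0.66), each detected on all 6 iPS arrays, was also called higher in hNanog iPS. For Ank3 the other probe read 5.79 to 6.09 in hNanog iPS and 5.24 to 6.48 in mNanog iPS, which overlapped. Stmn3 lost its call on leaving out any of the 6 iPS arrays in turn (adjusted p from 0.055 to 0.11). Nrxn2 lost it without hNanog iPS replicate 1 (0.064) or mNanog iPS replicate 1 (0.06) or 2 (0.052). Within dimmer arrays alone, where hNanog iPS had replicate 3 only, Ank3 was -1.45, and a p-value there carries little weight. With median scaling of the arrays none of the 6 passed, and calls over all 18185 probes fell from 2495 to 311. Under that scaling Mapt was 0.92, Nrxn2 0.92, Rtn1 0.70, Ank3 -0.88, Dpysl3 -0.43 and Stmn3 -0.04 (adjusted p from 0.2 for Mapt to 0.97 for Stmn3).

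Fibroblast markers moved with this comparison. The 2 tested of 5, Col1a1 and Thy1, summed to 47.3 to 63.2 in hNanog iPS, 379 to 439 in mNanog iPS, 46.9 to 52.5 in ES and 81.4 to 94.9 in NS. Col1a1 was detected on all 3 mNanog iPS arrays and on no array of the other groups. Thy1 also stands among the axon, cytoskeleton and adhesion genes read below, so it does not mark fibroblasts alone. It was detected on all 3 mNanog iPS arrays, all 3 NS arrays and 1 hNanog iPS array. The part of these markers in the differences of mNanog iPS was not tested. In the comparisons with NS, of 3 tested astrocyte markers (5 listed) and 5 tested oligodendrocyte lineage markers (7 listed), 2 and 4 were lower in ES and none and 1 higher. Of all genes, 36.9% were lower and 40.4% higher in ES minus NS. Aqp4 and Sox10, among the lower ones, were detected in NS alone, so the filter fixed their direction. Astrocyte markers summed to 849 to 1040 in hNanog iPS, 950 to 1130 in mNanog iPS, 990 to 1100 in ES and 5690 to 8230 in NS. The oligodendrocyte lineage markers summed to 227 to 232 in hNanog iPS, 197 to 216 in mNanog iPS, 301 to 351 in ES and 1860 to 2050 in NS. Their part in the neuronal differences from NS was not tested either.

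**Figure D4:**
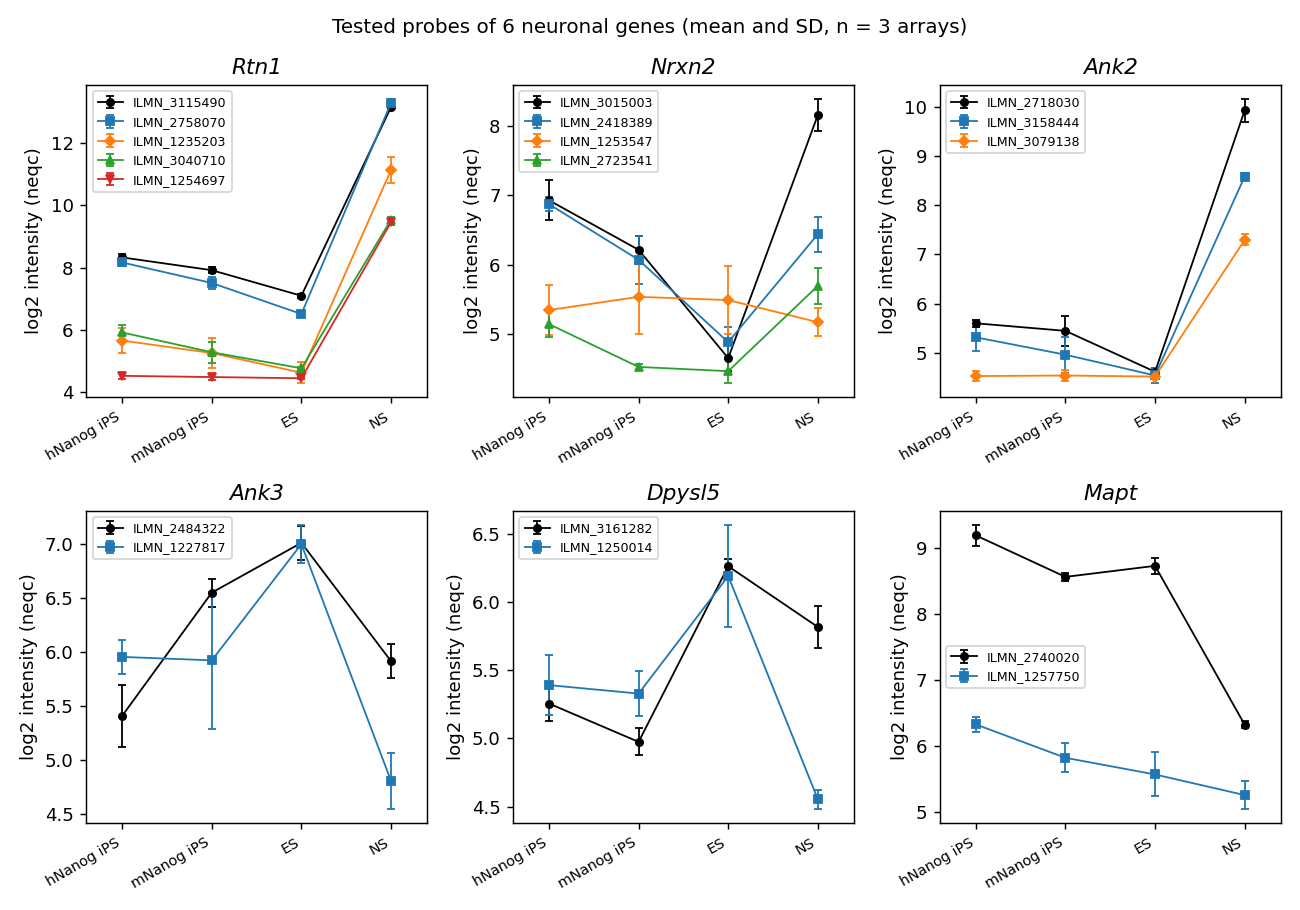
Mean normalised log2 intensity (points) and SD (bars, n = 3) of every tested probe of Rtn1, Nrxn2, Ank2, Ank3, Dpysl5 and Mapt in the 4 groups; each panel has its own vertical axis, which does not start at 0. The 5 Rtn1 probes share their direction against NS, while 1 probe of Ank3 and 1 of Dpysl5 are not detected in NS.

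Probes of a gene differed in other ways that bear on these values. Of the 12 genes with more than 1 tested probe, Rtn1 had 5 and Map2 and Nrxn2 had 4. The 4 Nrxn2 probes did not share a direction against NS. The probe above and another were detected on all 6 iPS and all 3 NS arrays, and the other read 0.43 in hNanog iPS minus NS (adjusted p = 0.043), opposite in sign to the -1.23 ± 0.17 above. A further probe was lower in all 3 comparisons and the last was called in none. Against ES, in contrast, the probe above and the other both gave higher calls in both iPS groups. All 3 tested Ank2 probes were lower than NS in the 3 comparisons, 1 of them detected in NS alone, and 1 more was called higher in hNanog iPS minus ES with no bound above 1. Labels give no isoform for a probe, and which transcripts each reads was not analysed here.

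Further neuronal genes were read from lists kept apart from the 29, and their counts stand beside 40.4% higher and 36.9% lower of all genes in ES minus NS. The detection filter bears on these counts too. Of the genes named below, Myt1, Insm1, Scg3, Syn2, Cplx2, Gria1, Gria2, Kcnd2 and Nrcam were detected in NS alone. They passed the filter through NS and so had to read lower in ES, as did others not named. Such calls lend no weight to a direction. Of 21 neuronal transcription factors 8 were tested, of which 1 was higher and 5 lower in ES minus NS. Sox11, Sox4, Myt1 and Insm1 had the largest changes. Sox11, a factor of immature neurons, was at least 79.6-fold lower in ES than in NS, Myt1 at least 7.88-fold and Insm1 at least 3.00-fold, and the Sox4 difference was -5.97. Sox11 was detected on 2 hNanog iPS arrays, 2 mNanog iPS arrays and no ES array, with means of 5.64, 5.85 and 5.15. Of 34 further vesicle and release genes 17 were tested, with 6 higher and 9 lower in ES minus NS. Scg3, Syn2 and Cplx2 (a granin, a synapsin and a complexin) were at least 5.37, 5.15 and 3.61-fold lower in ES, while Syngr1, a vesicle membrane protein, was higher by 2.90.

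Of 34 receptor and postsynaptic genes 16 were tested, with 3 higher and 11 lower in ES minus NS. Gria2 and Gria1 encode AMPA receptor subunits and Kcnd2 a potassium channel. They were detected in NS alone, at least 48.9, 3.75 and 16.5-fold lower in ES, and the difference of the scaffold gene Homer2 was -2.80. Homer2 averaged 7.27 in hNanog iPS and 7.54 in mNanog iPS, against 5.56 in ES, and was called higher in both iPS groups (adjusted p = 7.4e-07 and 1.2e-07). Of 37 axon, cytoskeleton and adhesion genes 26 were tested, with 6 higher and 18 lower. The axonal motor gene Kif1a and the adhesion gene Nrcam were at least 112 and 12.1-fold lower in ES than in NS, and Dpysl2, a relative of Dpysl3, differed by -4.03. The guidance ligand gene Slit2 was higher in ES by 4.20, with group means of 5.33 in hNanog iPS, 7.04 in mNanog iPS, 9.35 in ES and 5.15 in NS. It was detected on no hNanog iPS array, on all 3 arrays of mNanog iPS and of ES, and on 1 NS array. Slit2 was lower than ES in both iPS groups (adjusted p = 8.2e-11 and 3.6e-09).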

How the data were processed

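Total RNA from 12 samples in 4 groups of 3, grouped by their labels, was amplified with a TotalPrep kit, per the labels, for hybridisation to Illumina bead arrays. The authors deposited a linear intensity for 45281 probes per array, not normalized, and beside each intensity a deposited detection p-value in steps of 1 in 936. The authors also deposited a normalized table of 20513 probes, taken here as log2 from its values, since no label or header names the base.

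Intensities were background corrected and quantile normalized with neqc of limma 3.58.1 (R 4.3.3), with an offset of 16 and the background inferred from the detection p-values. Probes detected (p-value under 0.01) on at least 3 of 12 arrays were tested, 18185 in all, in a fit of 4 group means to all arrays with moderated variances (eBayes) and Benjamini-Hochberg adjustment over all of them, threshold 0.05. Of these probes, 15676 had 1 gene symbol, for 10043 genes; symbols come from the platform annotation, updated through RefSeq. A gene was read by its tested probe with the highest mean, and other probes are given where they differ. Precision is limited by the 3 arrays per group. Members, lists and tests were chosen with earlier results of these data known. Values per array are given for genes called in ES minus NS without overlap and for genes called among hNanog iPS, mNanog iPS and ES; from each further list at most 4 genes are named, by size of change among the calls in ES minus NS. Fibroblast markers and Nanog were named beside the results they move with. Promoter windows are from RefSeq (GRCm38.p6).

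On simulated data for ES minus NS over 18185 probes, 32% of shifts of 0.5 and 90% of shifts of 1 on the log2 scale were found, with 6 calls among 17985 probes simulated without a change. There 100 probes had each shift, while 13671 probes were called in the measured ES minus NS. The adjusted threshold was thus stricter in the simulation, and these shares do not give the sensitivity of the measured comparison. Alternatives covered background, offset, normalization, filter, probe choice, the authors' values, the test, samples in the fit, replicate number and brightness as blocks, brighter and dimmer arrays alone, and each array left out. No slide is named in the labels or headers, so a block for slide was not run.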

Additional observations from a re-analysis of the deposited data

Results flagged for a closer look

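The 6 neuronal genes below differed between the iPS groups in a test of that difference (limma, adjusted p under 0.05). On the log2 scale, hNanog iPS minus mNanog iPS was 0.63 for Mapt, 0.71 for Nrxn2 and 0.41 for Rtn1, and it was -0.33 for Stmn3, -0.68 for Dpysl3 and -1.14 for Ank3. Each of the 6 genes was higher, or lower, on all 3 arrays of hNanog iPS than on all 3 of mNanog iPS. Of the 29 genes 5 lay higher and 4 lower without overlap, beside 18.6% and 17.4% of all genes. Called were 3 higher and 3 lower, beside 7.09% and 8.53%. By the other Ank3 probe the groups overlapped, with a difference of 0.03. With median scaling none of the 6 passed, while calls over all 18185 probes fell from 2495 to 311. Stmn3 lost its call without any of the 6 iPS arrays in turn. For Rtn1 the hNanog iPS arrays were those nearer to NS, and for Dpysl3 the mNanog iPS arrays were. For Nrxn2 the nearer group depends on the probe: by the probe used hNanog iPS was nearer, and by the other probe detected on all iPS and NS arrays the group means were 6.87 in hNanog iPS and 6.07 in mNanog iPS, against 6.44 in NS. The fibroblast markers Col1a1 and Thy1 summed to 47.3 to 63.2 in hNanog iPS and 379 to 439 in mNanog iPS, and their part in these values was not tested. Thy1 is also listed among the axon, cytoskeleton and adhesion genes.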

How the results depend on the processing

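Over all 6 comparisons, results for single neuronal genes kept their direction and their side of the threshold in 2357 values recomputed under other settings and in 2060 with 1 array left out. In the remaining values a call was lost with its sign kept in 53 and 16, and gained in 22 and 12. It was lost with a change of sign in 4 and 0, and none was called in the opposite direction. Genes detected in NS alone are included, and the filter fixed their direction against NS. Replicate numbers did not pair the samples: arrays of the same number in different groups correlated from -0.507 to 0.374 after group means were removed (18 pairs, median -0.166). With the replicate block, the Ank3 call in mNanog iPS minus ES was lost (-0.46, adjusted p = 0.051) and no other call changed. With median scaling the median of all probes moved to -0.32 in mNanog iPS minus NS, against 0.08 with quantile normalization, and to -0.24 against 0.11 in ES minus NS; 3 and 2 neuronal genes were then called higher, against 5 and 5, and the cause was not tested. Calls over all 18185 probes fell from 13606 to 9128 in mNanog iPS minus NS and from 13671 to 8788 in ES minus NS. Median scaling left 3 higher and 2 lower neuronal genes in hNanog iPS minus ES and 3 and 3 in mNanog iPS minus ES. It left 0 and 0 in hNanog iPS minus mNanog iPS (4 at an unadjusted p under 0.05, limma, with no share of all genes given). In the same order, calls over all probes fell from 4752 to 730, from 5968 to 927 and from 2495 to 311. Dimmer arrays alone left replicate 3 as the only hNanog iPS array and replicate 2 as the only NS array. Brighter arrays alone left replicate 3 of mNanog iPS and replicate 1 of ES. Calls in these fits rest on a spread taken from other groups. They are part of the totals of kept, lost and gained results above, but are not counted singly here. Of all probes called, 30.3% were higher in mNanog iPS minus NS with median scaling (52% with quantile), 32.5% in ES minus NS (54%), 42.7% in hNanog iPS minus NS (53.9%), 76% in hNanog iPS minus ES (52.6%) and 65.3% in mNanog iPS minus ES (48.6%); in hNanog iPS minus mNanog iPS cyclic loess gave 35.8% (46.8%). Median scaling turned Stx1a to -0.135 in mNanog iPS minus NS (adjusted p = 0.75) and -0.052 in ES minus NS (0.91). Averaging all probes of a gene turned hNanog iPS minus NS to 0.138 for Dpysl5 and 0.321 for Ank3, where the probes disagree. With 1 array left out, counts of higher genes ran from 6 to 8 in hNanog iPS minus ES, 5 to 7 in mNanog iPS minus ES and 2 to 4 in hNanog iPS minus mNanog iPS, and counts of lower genes from 4 to 5 and 2 to 3 in the last pair. In the authors' processed values, the 29 calls among hNanog iPS, mNanog iPS and ES were all smaller, by 1.26 to 4.56 times on the log2 scale, and calls were lost for Ank3 in hNanog iPS minus NS, Dclk1 in hNanog iPS minus ES and Ank2 in both iPS groups minus ES. Signal over background limits Rbfox3, Basp1 and Dlg4 in all 3 comparisons with NS to bounds of at least 1.09 to 1.49-fold, and Syt1 to 1.04-fold in hNanog iPS minus NS and to none in the other 2.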

Other observations

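The REST repressor complex was read from 10 genes, of which 8 were tested; Rest itself was not among them. All 8 were detected on every array of every group. In ES minus NS 3 were higher and 3 lower, beside 40.4% and 36.9% of all genes, and the median over the 8 was -0.02 on the log2 scale. The corepressor genes Sin3a and Rcor2 and the demethylase gene Kdm1a were higher in ES than in NS by 1.00, 0.82 and 0.44, and the methyltransferase gene Ehmt2 was lower, at -0.38. Rcor2 averaged 6.50 in hNanog iPS, 6.40 in mNanog iPS, 7.62 in ES and 6.80 in NS, and was lower in both iPS groups than in ES (adjusted p = 5.2e-05 and 1.7e-05).

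Of 10 further neuronal RNA-binding genes 4 were tested, and 3 of these were higher and 1 lower in ES than in NS. Elavl2, a Hu protein gene related to Elavl3 and Elavl4, averaged 9.67 in hNanog iPS, 9.63 in mNanog iPS, 9.90 in ES and 7.85 in NS, and was higher in ES than in NS by 2.05. The splicing factor gene Rbfox2, a relative of Rbfox3, was higher in ES by 1.62, and Celf4, not detected in NS, was at least 2.51-fold higher. Nova1, a splicing regulator, was detected in NS alone and was at least 3.32-fold lower in ES. Among hNanog iPS, mNanog iPS and ES, limma gave these 4 genes adjusted p-values from 0.063 (Celf4, hNanog iPS minus mNanog iPS) to 0.88.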
